A study of Rattus norvegicus with 16 samples.

Results

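The genes described here encode the fusion machinery of synaptic vesicles and its relatives: synaptotagmins (Syt), syntaxins (Stx), syntaxin-binding proteins (Stxbp), vesicle-associated membrane proteins (Vamp), complexins (Cplx) and the SNAP25 family. Every gene of the platform annotation whose symbol is Syt, Stx, Stxbp, Vamp or Cplx followed by a number was taken, with Snap23, Snap25, Snap29 and Snap47, which gave 47 of the 15037 genes with a symbol. Each of the 47 had 1 probe set.

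Male Wistar rats aged 8 to 10 weeks were given 1 of 4 treatments for 60 min, all with 40% oxygen at 6 L/min. They inhaled 2.4% sevoflurane, breathed the oxygen without an anesthetic (O2), received propofol intravenously at 36 mg/kg/hr after a bolus of 10 mg/kg, or received Intralipos, a 10% lipid emulsion, at the same stated rate and bolus. From each treatment 4 regions were cut by laser from Nissl-stained sections: the habenula's lateral part (LHb) and its medial part (MHb), and in the hindbrain the medial vestibular (MVe) and solitary (Sol) nuclei. RNA of each region and treatment was hybridised to 1 Affymetrix array, so there were 16 arrays and no replicate of any single combination. The labels do not say how many rats stand behind an array or which regions share a rat. Sevoflurane is an inhaled anesthetic, propofol an intravenous one, and O2 and Intralipos are their respective controls.

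Fusion of a vesicle with the plasma membrane is driven by a bundle of SNARE proteins. Vamp2 or Vamp1 on the vesicle pairs with Stx1a and Snap25 on the plasma membrane. Complexins clamp and support the partly zipped bundle, and a synaptotagmin senses the calcium that enters through presynaptic channels. Syt1, Syt2 and Syt9 are the sensors of fast release, and neurons differ in which of them they use. Syt7 serves slower release, while other synaptotagmins act in dense-core vesicles, vesicle traffic or recycling, several of them without binding calcium. The medial habenula sends a cholinergic and peptidergic tract to the interpeduncular nucleus. The medial vestibular nucleus holds glycinergic, GABAergic and glutamatergic neurons, some with high firing rates.

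The genes whose levels separated the regions most included a habenula-high pair, Syt9 and Syt6, and an MVe-high pair, Syt2 and Vamp1. The sequences at their annotated starts are shown because the members of each pair were highest in the same region. In the hindbrain the habenula-high pair parted, Syt6 being higher in Sol than in MVe and Syt9 lower. Each sequence is RefSeq's, on the rat build GRCr8, from 250 bases before to 50 bases after the annotated start, 5′ to 3′. Capitals mark matches to 4 motifs, searched on both strands. The GC box is GGGCGG. The CCAAT box is spelled by its name. The motif TATAAA is a TATA box. The letters TGACG are the repeated part of a cAMP response element and may overlap themselves.
Syt9, chr1:170687555-170687854, plus strand: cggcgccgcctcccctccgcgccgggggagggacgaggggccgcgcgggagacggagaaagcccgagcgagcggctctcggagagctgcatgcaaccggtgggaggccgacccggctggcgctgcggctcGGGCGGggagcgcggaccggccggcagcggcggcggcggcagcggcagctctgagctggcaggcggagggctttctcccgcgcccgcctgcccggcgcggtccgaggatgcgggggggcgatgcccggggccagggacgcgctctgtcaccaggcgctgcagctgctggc
Syt6, chr2:193781226-193781525, plus strand: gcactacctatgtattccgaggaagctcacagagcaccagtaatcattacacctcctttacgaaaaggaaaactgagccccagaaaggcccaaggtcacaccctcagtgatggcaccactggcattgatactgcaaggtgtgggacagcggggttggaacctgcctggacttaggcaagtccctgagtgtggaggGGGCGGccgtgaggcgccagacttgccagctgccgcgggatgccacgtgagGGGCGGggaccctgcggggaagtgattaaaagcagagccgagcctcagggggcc
Syt2, chr13:48736872-48737171, plus strand: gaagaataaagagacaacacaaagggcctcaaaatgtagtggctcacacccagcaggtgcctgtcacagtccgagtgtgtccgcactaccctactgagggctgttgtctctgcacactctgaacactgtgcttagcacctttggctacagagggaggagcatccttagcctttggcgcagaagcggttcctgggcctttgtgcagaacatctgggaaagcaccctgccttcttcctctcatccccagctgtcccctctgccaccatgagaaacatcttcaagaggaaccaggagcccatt
Vamp1, chr4:159698644-159698943, plus strand: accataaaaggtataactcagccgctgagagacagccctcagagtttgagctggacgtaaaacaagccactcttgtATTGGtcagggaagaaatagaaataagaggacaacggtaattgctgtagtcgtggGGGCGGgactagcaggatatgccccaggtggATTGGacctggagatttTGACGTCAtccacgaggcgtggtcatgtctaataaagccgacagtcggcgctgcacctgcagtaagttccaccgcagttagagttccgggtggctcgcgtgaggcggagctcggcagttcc

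The Syt9 window was 79.7% G and C with 45 CpG dinucleotides and held 1 GC box. The Syt6 window was 59.7% G and C with 12 CpG and held 2 GC boxes. The Syt2 window had 54.0% G and C, 4 CpG and none of the 4 motifs. The Vamp1 window had 53.3% G and C and 17 CpG, and it held 1 GC box, 2 CCAAT boxes and 2 overlapping matches to the cAMP response letters, 1 on each strand. In these windows, neither pair therefore shared a motif among those searched that set it apart from the other pair. After its annotated start the Syt9 window opens with a possible start codon (ATG), and in Syt2 an ATG follows soon after the start. Those 2 starts may be coding starts, so the windows may miss the promoters. Of the 47 genes, 38 were in the promoter table and 9 were not. A GC box was present in 24 of the 38 (63.2%) against 33.1% of all 33469 promoters of that length. The CCAAT box was present in 15 (39.5% against 37.5%), the cAMP response letters in 12 (31.6% against 21.2%) and the TATA box in 3 (7.89% against 14.2%). The median promoter of the 38 had 61.2% G and C and 17.5 CpG, beside 51.7% and 7.0 over all promoters. A match describes the letters of the window and not a bound site.

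Values are the authors' deposited signals, read as log2, so that a difference of 1 is a 2-fold change. Levels of different genes are not set against each other, because probes differ in brightness. Arrays with sevoflurane or O2 averaged 7.20 to 7.21 over all probe sets, and those with propofol or Intralipos 6.97 to 6.99. Those 2 sets of arrays look separately normalized, so each anesthetic was compared within its own set. Of the 47 genes, 38 had a mean level at or above the median gene (6.93), and Cplx3, Cplx4, Stx11, Stx17, Stx19, Stxbp2, Syt8, Vamp5 and Vamp8 were below it. Many listed markers separated the labelled regions, and some did not. Dbh, Th and Tbx20 were higher in every Sol array than in any other, while Phox2a and Prlh, also listed for Sol, overlapped other regions. Of the LHb markers, Htr2c read 16.25 to 16.75 in LHb and at most 14.91 elsewhere. Gap43 was lower in LHb (14.51 to 15.14) than in Sol (15.71 to 15.84). Gpr151, a habenular receptor, read 13.22 to 16.53 in the 8 habenula arrays and 4.29 to 5.56 in the 8 hindbrain arrays, Dbh 10.16 to 11.88 in Sol and at most 3.78 elsewhere, and the glycine transporter gene Slc6a5 13.98 to 14.31 in MVe. All 7 medial habenula markers were lower in every LHb array than in every MHb array, and 3 of them (Chrna3, Tac3 and Gng8) were higher in every LHb array than in every hindbrain array. Of these, Tac3 read 8.37 to 11.50 in LHb, 15.31 to 16.14 in MHb and 3.43 to 5.32 in the hindbrain. Chrnb4, Chat, Slc5a7 and Tac1 overlapped between LHb and Sol. In tissue of mixed cells, fewer cells of a type and less RNA per cell cannot be told apart.

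Release machinery genes differed between the 4 regions by very unequal amounts. The highest and lowest region means were up to 9.71 apart, for Syt6, and under 1 apart for 21 of the 47 genes (44.7%). The region term passed the moderated F test (limma, adjusted p under 0.05) for 34 of the 47 genes (72.3%), and 54.1% of all genes passed it. Brighter genes passed more often: among genes at or above the median level 79.5% passed, and 32 of the 38 such members did (84.2%), a share near that background. The median distance between the highest and the lowest region mean was 1.19 for the 47 genes and 0.62 for all genes, and it was at least 2 for 16 of the 47 (34.0%) and for 11.1% of all genes. At or above the median level the median distance was 1.36 for the 38 members and 0.95 for all such genes, and 42.1% of the former and 17.9% of the latter reached 2. In 16 genes (34.0%) all 4 arrays of the highest region lay above all other arrays, against a background of 16.3%, and in 15 genes (31.9%) all 4 arrays of the lowest region lay below all others, against 13.1%. All 16 and all 15 were among the 38 brighter members (42.1% and 39.5%, beside 25.7% and 23.8% of all genes of that brightness). Of the 34 genes that passed, 13 were highest in MHb, 10 in MVe, 7 in Sol and 4 in LHb, and 12 were lowest in MHb, 12 in MVe, 8 in Sol and 2 in LHb. The other presynaptic genes, a list of 68 active zone, vesicle and endocytic genes of which 62 were measured, passed in 53 cases (85.5%).

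**Figure D1:**
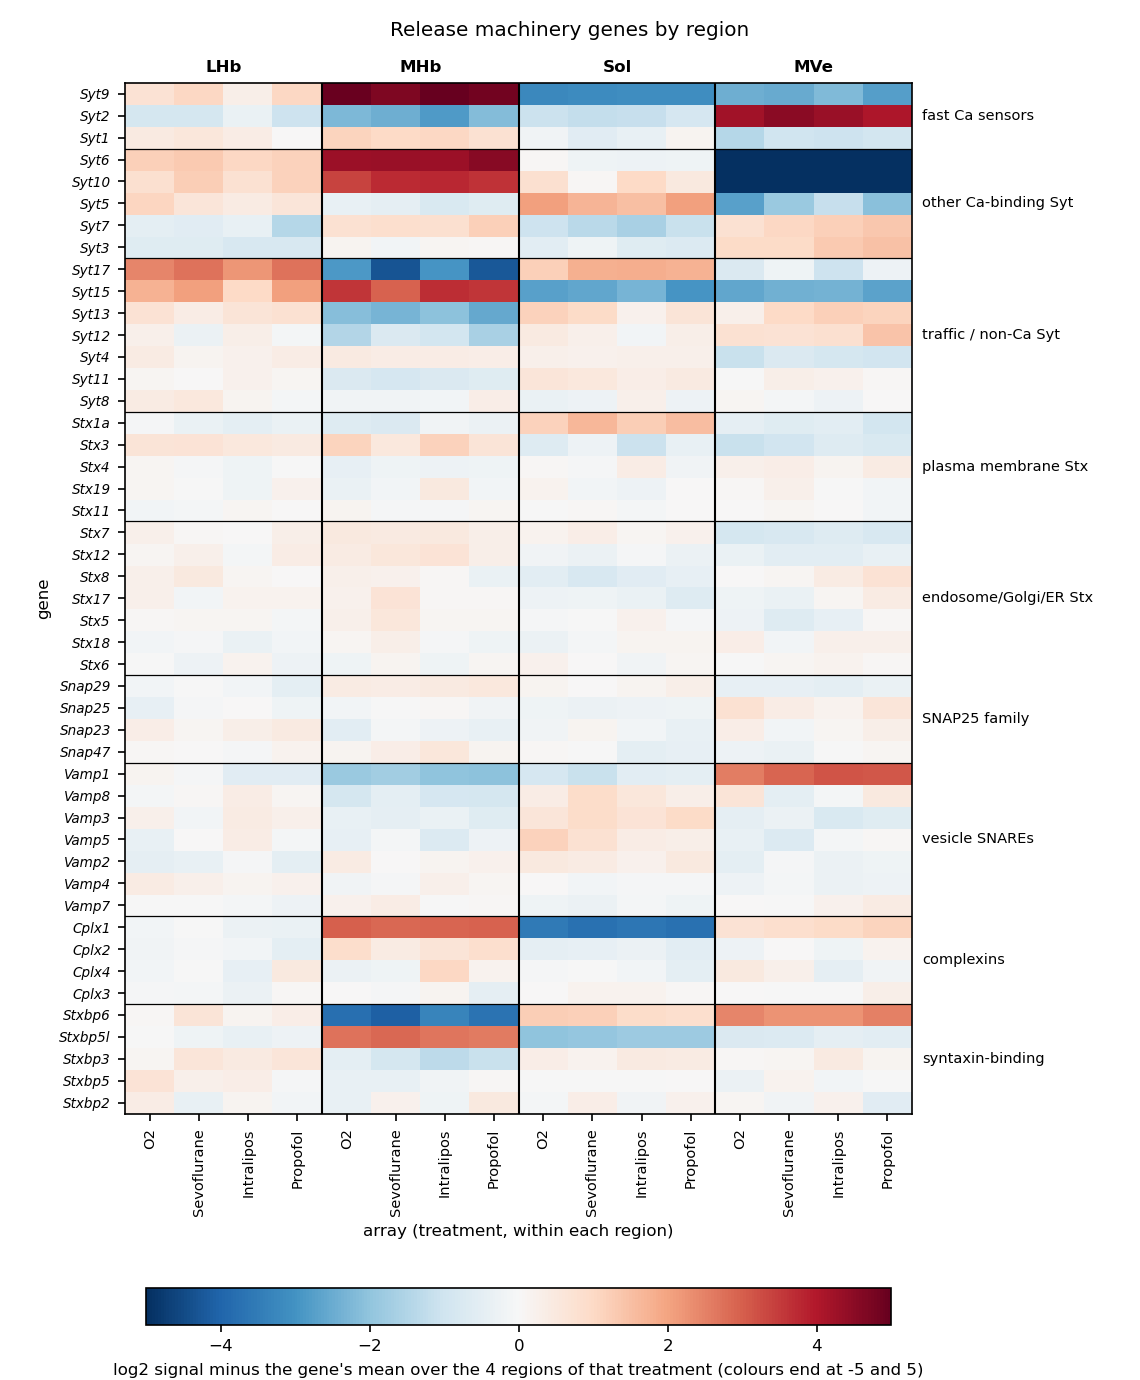
Level of the 47 genes in the 16 arrays, as the log2 signal minus the gene's mean over the 4 regions under that treatment (colour, from -5 in blue to 5 in red); rows are genes grouped by role, columns are arrays grouped by region. The colours change between regions. Treatment differences that all regions share are removed by this centring and are not shown. In MVe, Syt6 is off the blue end of the scale and Syt10 is near or off it.

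The size of the differences varied with role. All 3 fast calcium sensors, all 5 other calcium-binding synaptotagmins and 6 of the 7 remaining synaptotagmins passed the F test. Among the SNAREs, 6 of 7 vesicle SNAREs, 3 of 4 members of the SNAP25 family, 3 of 5 plasma membrane syntaxins and 3 of 7 syntaxins of endosome, Golgi and ER passed, as did 2 of 4 complexins and 3 of 5 syntaxin-binding proteins. Beside these stand 54.1% of all genes and 79.5% of those at or above the median level, and the groups are too small to set their shares apart from that. The median distance between regions was 6.68 for the fast sensors, 3.77 for the other calcium-binding synaptotagmins and 2.12 for the synaptotagmins of traffic. It was 1.40 for the syntaxin-binding proteins, 1.00 for the vesicle SNAREs and 0.73 for the complexins. The SNAP25 family had 0.67, the syntaxins of endosome, Golgi and ER 0.61 and those of the plasma membrane 0.55, beside 0.62 for all genes. Distances of 2 or more were reached by 11 synaptotagmins, and otherwise by Stx1a, Vamp1, Cplx1, Stxbp6 and Stxbp5l.

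**Figure D2:**
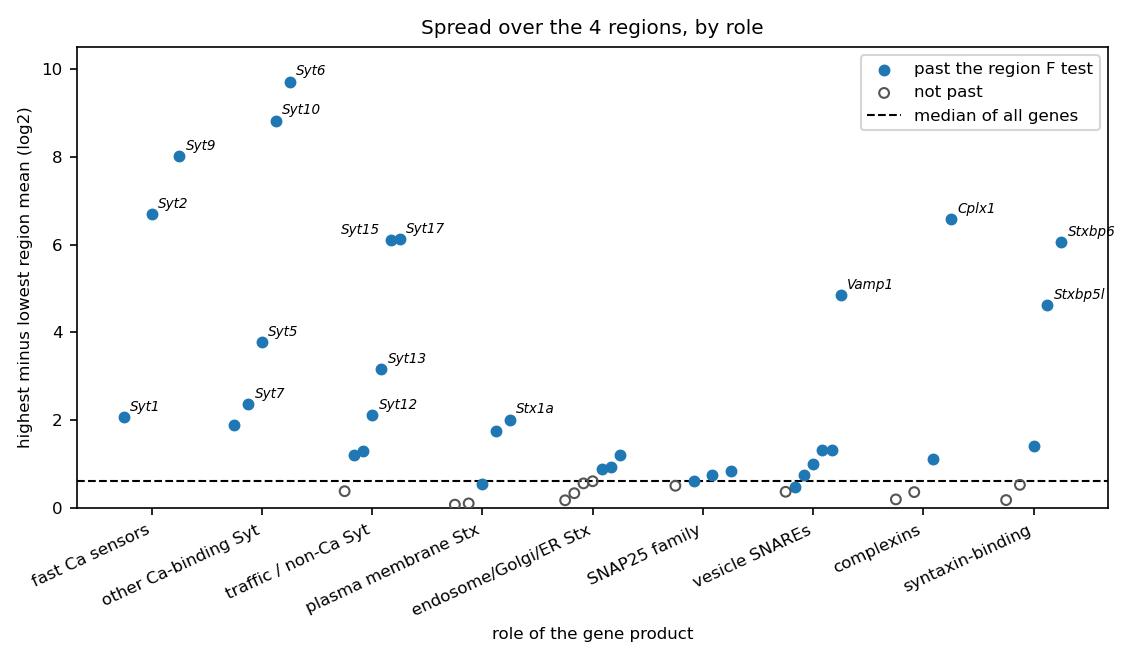
Distance between the highest and lowest region mean (log2, vertical axis) of each of the 47 genes, by role; filled points passed the region F test, open points did not, and the dashed line is the median of all genes, 0.62. The synaptotagmins Syt6, Syt10, Syt9 and Syt2 lie highest, and most syntaxins and SNAP25 relatives lie near the dashed line.

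The region term was resolved by 3 contrasts, each from the same fit, with ± the moderated standard error. Habenula against hindbrain (mean of LHb and MHb minus mean of Sol and MVe) called 15 genes higher in the habenula, where 18.3% of all genes were called, and 12 lower, where 19.8% were. Differences of at least 1 were 8 higher (background 3.96%) and 6 lower (5.89%). LHb minus MHb called 13 genes higher (14.1%) and 12 lower (14.4%), of them 8 (6.99%) and 7 (4.91%) by at least 1. Sol minus MVe called 12 genes higher (19.3%) and 11 lower (16%), with 7 higher by at least 1 (7.81%) and 7 lower (5.95%). Among members at or above the median gene, the share called in either direction was 65.8%, 63.2% and 57.9% in the 3 contrasts, beside 57.3%, 43.9% and 52.9% of all genes of that brightness. Centring each array on its own median shifts the median difference of all genes from -0.04 to -0.14 in LHb minus MHb and from -0.02 to -0.17 in Sol minus MVe. It takes the share of higher genes among all called from 49.4% to 38.4% and from 54.7% to 38.8%, and among the called members from 52% to 46.2% and from 52.2% to 48%. The members named for these contrasts kept their direction under this centring and under quantile normalization.

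In the sentences that follow, a region's 4 values stand in the order O2, sevoflurane, Intralipos, propofol. The 3 fast calcium sensors were arranged differently over the regions. Syt9 read 16.48, 16.55, 16.01 and 15.85 in MHb, 12.25, 12.92, 11.28 and 12.06 in LHb, 8.31, 8.74, 7.86 and 7.93 in Sol, and 9.11, 9.37, 8.79 and 8.28 in MVe. MHb stood apart from LHb and both from the hindbrain in every array, and the habenula was higher by 5.63 ± 0.13 (adjusted p = 1.5e-16) and LHb below MHb by a difference of -4.10 ± 0.18 (adjusted p = 5.3e-12). Syt2 showed another order: it read 12.77, 12.71, 12.52 and 12.47 in MVe, 7.50, 7.02, 7.06 and 7.57 in Sol, 7.71, 7.30, 7.86 and 7.40 in LHb, and 6.34, 5.76, 5.39 and 6.25 in MHb. All 4 MVe arrays were far above the rest, LHb and Sol overlapped, and MHb was lowest. The difference Sol minus MVe was -5.33 ± 0.19 (adjusted p = 3e-13) and LHb minus MHb 1.63 ± 0.19 (adjusted p = 1.6e-06).

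Syt1, the fast sensor of most forebrain synapses, was measured in every region with a smaller spread. It read 16.70, 16.78, 16.76 and 16.80 in MHb, 16.03, 16.35, 16.07 and 16.07 in LHb, 15.42, 15.21, 15.35 and 16.17 in Sol, and 14.17, 14.77, 14.70 and 15.15 in MVe. MHb lay above all other arrays and MVe below all others, while Sol reached into LHb through its propofol array. Syt1 was higher in the habenula by 1.33 ± 0.13 (adjusted p = 1.4e-07) and in Sol over MVe by 0.84 ± 0.18 (adjusted p = 0.0014). LHb minus MHb was -0.63 ± 0.18 (adjusted p = 0.014), a call that was lost without the MHb O2 array (-0.57, adjusted p = 0.0546) or the LHb propofol array (-0.48, adjusted p = 0.0778). Over all settings tried, limma's adjusted p for it ran from 0.00122 to 0.148. MVe, the region lowest in Syt1, was thus the region highest in Syt2. Syt9 was highest in MHb, where Syt2 was lowest.

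**Figure D3:**
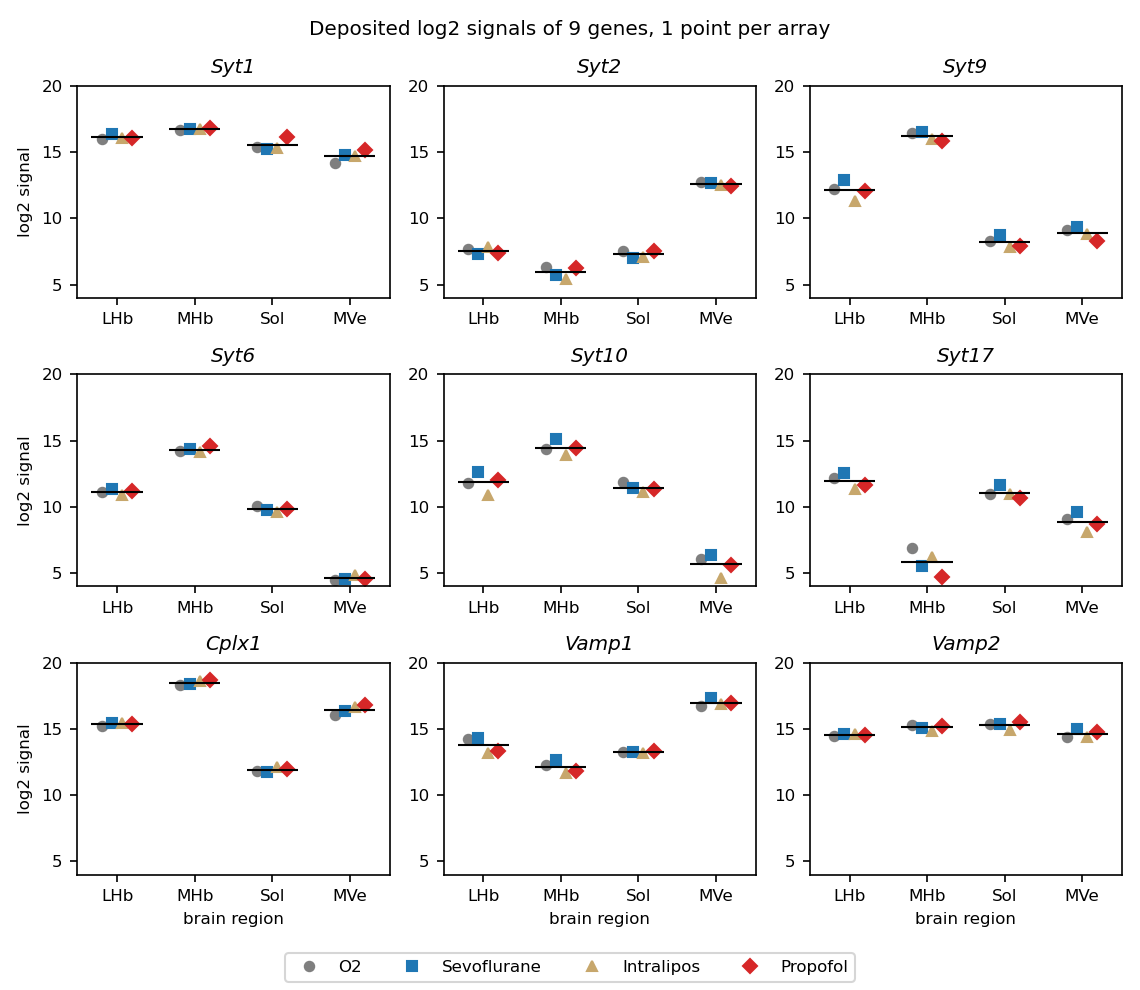
Deposited log2 signal (vertical axis, same scale in all panels) of 9 genes in the 4 regions; each point is 1 array, its shape and colour give the treatment, and the black line is the mean of the region's 4 arrays. Syt2 and Vamp1 are high in MVe, Syt9, Syt6 and Syt10 in MHb, Syt17 is low in MHb, Cplx1 is low in Sol, and Vamp2 varies little.

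Among the other calcium-binding synaptotagmins, Syt6 and Syt10 were high in MHb and lowest in MVe. Syt6 read 14.22, 14.33, 14.11 and 14.58 in MHb, 11.15, 11.32, 10.86 and 11.19 in LHb, 10.03, 9.78, 9.57 and 9.80 in Sol, and 4.46, 4.56, 4.81 and 4.57 in MVe. The 4 regions did not overlap, and the habenula was higher by 5.52 ± 0.11 (adjusted p = 4.6e-17), Sol above MVe by 5.19 ± 0.15 (adjusted p = 4.1e-14), and LHb minus MHb was -3.18 ± 0.15 (adjusted p = 2e-11). Syt10, known from dense-core vesicles that release IGF-1 in the olfactory bulb, read 14.39, 15.12, 13.93 and 14.46 in MHb, 11.83, 12.61, 10.90 and 12 in LHb, 11.84, 11.42, 11.14 and 11.34 in Sol, and 6.05, 6.35, 4.61 and 5.60 in MVe. LHb and Sol overlapped, MHb lay above them and MVe far below. Its contrasts were 4.61 ± 0.15 for habenula minus hindbrain, -2.64 ± 0.21 for LHb minus MHb and 5.79 ± 0.21 for Sol minus MVe (adjusted p = 2.2e-14, 1.3e-08 and 4.2e-13). In MVe all values of Syt6 and Syt10 were below the level of the median gene (6.93), so the size of their differences against MVe is uncertain. Those of Syt6 lay within the range of Gpr151 in the hindbrain (4.29 to 5.56).

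Syt7, the sensor of slower release, had yet another arrangement. It read 10.73, 11.29, 10.76 and 10.74 in MVe, 10.71, 11.09, 10.39 and 10.60 in MHb, 9.45, 9.67, 9.21 and 7.96 in LHb, and 8.92, 8.90, 7.98 and 8.29 in Sol. MVe and MHb overlapped, and so did LHb and Sol, because of the low LHb propofol array. Sol minus MVe was -2.36 ± 0.22 (adjusted p = 1.3e-07) and LHb minus MHb -1.63 ± 0.22 (adjusted p = 1.3e-05), whereas habenula minus hindbrain was 0.19 ± 0.16 and did not pass (adjusted p = 0.4), although it did without that propofol array (0.35, adjusted p = 0.0274, with a range of 0.0274 to 0.826 over the settings tried). Syt5 was highest in Sol (11 to 11.96) and lowest in MVe (7.20 to 8.35), a difference of 3.77 ± 0.26 (adjusted p = 2.2e-09), with LHb above MHb by 1.21 ± 0.26 (adjusted p = 0.0014). Syt3 was highest in MVe (9.54 to 9.92, against 7.53 to 8.73 in all other arrays), and Sol minus MVe was -1.69 ± 0.16 (adjusted p = 1.8e-07). With Syt2 and Syt3 high in MVe, Syt5 in Sol, Syt6, Syt9 and Syt10 in MHb and Syt7 in MHb and MVe, each region but LHb was the highest for at least 1 calcium-binding synaptotagmin.

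LHb was the highest region for Syt17, a peripheral membrane synaptotagmin of the Golgi and endosomes. Syt17 read 12.21, 12.56, 11.37 and 11.65 in LHb, 10.98, 11.63, 10.96 and 10.66 in Sol, 9.05, 9.63, 8.12 and 8.67 in MVe, and 6.90, 5.52, 6.20 and 4.69 in MHb. LHb and Sol overlapped, and all MHb arrays were below all others. Its difference LHb minus MHb was 6.12 ± 0.31 (adjusted p = 2.8e-11), the widest of the 47 genes in that contrast, and Sol minus MVe was 2.19 ± 0.31 (adjusted p = 1.7e-05). Syt15, which does not bind calcium, read 10.59, 10.15, 10.74 and 11.18 in MHb, 8.74, 9.24, 8.05 and 9.67 in LHb, 4.30, 4.62, 4.71 and 4.65 in Sol, and 4.42, 4.81, 4.67 and 4.93 in MVe. The hindbrain arrays overlapped at a level far below the habenula and below the median gene (6.93). The contrasts were 5.16 ± 0.16 for habenula minus hindbrain (adjusted p = 2e-14) and -1.74 ± 0.23 for LHb minus MHb (adjusted p = 1e-05).

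Syt13, another synaptotagmin without calcium binding, was low in MHb (6.83 to 7.35) and between 9.46 and 10.67 in all other arrays, so that LHb exceeded MHb by 2.89 ± 0.23 (adjusted p = 1.2e-08). Syt12, a vesicle protein that promotes spontaneous release, was also lowest in MHb, with LHb minus MHb at 1.22 ± 0.23 (adjusted p = 0.00041). Its Sol minus MVe difference of -0.72 ± 0.23 (adjusted p = 0.019) was lost without the Sol Intralipos array (-0.56, adjusted p = 0.0885) or the MVe propofol array (-0.50, adjusted p = 0.105), and its adjusted p ranged from 0.00394 to 0.358 over the settings tried. Syt11, which restrains vesicle recycling, was lowest in MHb as well (14.95 to 15.47, against 15.80 to 16.51 elsewhere), and LHb minus MHb was 0.83 ± 0.14 (adjusted p = 0.00011). Syt4, a synaptotagmin of dense-core vesicles, was lowest in MVe (13.27 to 14.03, against 14.59 to 15.38 elsewhere), with Sol above MVe by 1.17 ± 0.14 (adjusted p = 2e-06). MHb was thus the lowest region for Syt2, Syt11, Syt12, Syt13 and Syt17 and the highest for Syt1, Syt6, Syt9, Syt10 and Syt15.

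Markers of other cell types moved between the same regions. All 9 astrocyte markers passed in LHb minus MHb, 8 of them higher in LHb (median 2.80), all 9 oligodendrocyte markers were higher in LHb (median 1.84), and the summed astrocyte signal was 18.96 to 19.48 in LHb and 17.29 to 17.80 in MHb (log2). All 7 medial habenula markers were lower in LHb than in MHb (median -4.65), the dimmest there being Chat at 5.77 to 6.70. Their summed signal was 14.80 to 16.39 in LHb, 19.10 to 19.42 in MHb, 13.03 to 13.45 in Sol and 10.00 to 10.64 in MVe. In MVe, all 9 oligodendrocyte markers exceeded Sol (median of Sol minus MVe -2.81), the summed choroid plexus signal was 17.01 to 18.27, against 8.70 to 15.12 in the other regions, and the summed signal of 11 neuronal markers was 19.00 to 19.19, against 18.03 to 18.91. Snap25, the twelfth gene of that list, is left out of this sum because it is one of the genes described. Single genes of the full list of 12 did not all follow the sum. Rbfox3, Slc17a6 and Elavl4 (3 of 12) were higher in the habenula than in the hindbrain. In LHb minus MHb 6 of 12 were above 0, and in Sol minus MVe 3 of 12. The parts of these cell types in the region differences of the synaptotagmins above, and of the genes below, were not tested.

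Of the vesicle SNAREs, the abundant neuronal pair Vamp1 and Vamp2 behaved differently. Vamp1, the form prominent in brainstem and motor circuits, read 16.70, 17.32, 16.85 and 16.95 in MVe, 14.25, 14.35, 13.15 and 13.30 in LHb, 13.28, 13.29, 13.17 and 13.35 in Sol, and 12.26, 12.64, 11.70 and 11.81 in MHb. MVe was far above all other arrays, MHb below all others, and LHb overlapped Sol. Sol minus MVe was -3.68 ± 0.20 (adjusted p = 9.3e-11), habenula minus hindbrain -2.18 ± 0.14 (adjusted p = 5e-10) and LHb minus MHb 1.66 ± 0.20 (adjusted p = 3e-06). Vamp2 read 15.31, 15.04, 14.87 and 15.22 in MHb, 15.38, 15.41, 14.92 and 15.51 in Sol, 14.45, 14.64, 14.64 and 14.51 in LHb, and 14.41, 14.96, 14.42 and 14.80 in MVe. Every MHb and every Sol array exceeded every LHb array, and the other pairs of regions overlapped. Sol was above MVe by 0.66 ± 0.16 (adjusted p = 0.0027). LHb minus MHb was -0.55 ± 0.16 (adjusted p = 0.012), which was lost without the MHb O2 array (-0.45, adjusted p = 0.0648) or the LHb propofol array (-0.48, adjusted p = 0.0534), and the adjusted p ranged from 0.00107 to 0.227 over the settings tried. The habenula and hindbrain means differed by -0.14 ± 0.11 (adjusted p = 0.36), not past the threshold.

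Vamp3, the widely expressed cellubrevin, was highest in Sol (9.17 to 9.72, against 7.73 to 9.08 elsewhere), by 1.31 ± 0.16 over MVe (adjusted p = 4.6e-06), and LHb exceeded MHb by 0.63 ± 0.16 (adjusted p = 0.0065). The dim genes Vamp8, an endosomal SNARE, and Vamp5 had smaller differences: Vamp8 in LHb minus MHb was 0.90 ± 0.23 (adjusted p = 0.0053) and Vamp5 in Sol minus MVe 0.92 ± 0.22 (adjusted p = 0.0034). Microglial markers were higher in Sol too, with all 8 above MVe (median 2.05) and a summed signal of 11.52 to 12.76 in Sol and 9.89 to 10.76 in MVe. Of the astrocyte markers, 7 of 9 were higher in Sol than in MVe (median 0.79). Their summed signal was 20.21 to 20.36 in Sol and 19.29 to 19.48 in MVe. The parts of both cell types in Vamp3 and Vamp5 were not tested. Vamp7, a SNARE of late endosomes, did not pass the F test, and Vamp4, of the Golgi, passed it with an adjusted p of 0.049.

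Snap25, the plasma membrane SNARE of nearly all neurons, read 19.61, 19.17, 18.59 and 19.28 in MVe, 18.42, 18.71, 18.46 and 18.44 in LHb, 18.69, 18.76, 18.49 and 18.48 in MHb, and 18.60, 18.48, 18.17 and 18.44 in Sol. These values lie close to the highest in the table (19.93). All regions overlapped the MVe Intralipos array. Sol minus MVe was -0.74 ± 0.16 (adjusted p = 0.0012), while LHb minus MHb (-0.10 ± 0.16, adjusted p = 0.72) and habenula minus hindbrain (-0.24 ± 0.11, adjusted p = 0.11) did not pass. The latter did without the MVe Intralipos array (-0.31, adjusted p = 0.0326), and its adjusted p ranged from 0.018 to 0.597 over the settings tried. Snap29, a SNARE of autophagy and recycling, was highest in MHb, with LHb minus MHb at -0.63 ± 0.14 (adjusted p = 0.0021) and Sol minus MVe at 0.56 ± 0.14 (adjusted p = 0.0048).

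Stx1a, the plasma membrane syntaxin of neuronal release, was highest in Sol. It read 10.43, 10.96, 9.63 and 10.07 in Sol, 9.21, 9.01, 7.92 and 8.19 in LHb, 8.66, 8.60, 8.22 and 8.26 in MHb, and 8.84, 8.71, 7.89 and 7.62 in MVe. All Sol arrays were above all others and the other 3 regions overlapped. Sol minus MVe was 2.01 ± 0.18 (adjusted p = 6.2e-08) and habenula minus hindbrain -0.76 ± 0.13 (adjusted p = 8.1e-05), whereas LHb minus MHb was 0.15 ± 0.18 (adjusted p = 0.61) and turned to -0.18 in the propofol and Intralipos arrays alone. Stx3, the syntaxin of ribbon synapses and of postsynaptic traffic, was higher in the habenula (9.16 to 9.89) than in the hindbrain (7.55 to 8.73), by 1.45 ± 0.14 (adjusted p = 1.2e-07). Of the syntaxins of internal membranes, Stx12 and Stx7, both endosomal, were higher in the habenula by 0.63 ± 0.11 and 0.57 ± 0.10 (adjusted p = 0.0001 and 0.00011). Stx7 was also higher in Sol than in MVe, by 0.99 ± 0.14 (adjusted p = 1.5e-05), and Stx8 was lower, at -0.88 ± 0.19 (adjusted p = 0.0012).

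Cplx1, the complexin that both clamps and promotes fusion, read 18.33, 18.36, 18.62 and 18.66 in MHb, 16.05, 16.34, 16.66 and 16.79 in MVe, 15.20, 15.47, 15.41 and 15.34 in LHb, and 11.80, 11.76, 12.10 and 11.98 in Sol. The 4 regions did not overlap. Sol minus MVe was -4.55 ± 0.14 (adjusted p = 6.6e-14), LHb minus MHb -3.13 ± 0.14 (adjusted p = 7.6e-12) and habenula minus hindbrain 2.74 ± 0.10 (adjusted p = 1.6e-13). Cplx2, its close relative, read 11.35, 10.59, 10.53 and 10.69 in MHb and 9.35 to 10.29 in all other arrays. LHb minus MHb was -0.90 ± 0.16 (adjusted p = 0.00027) and habenula minus hindbrain 0.48 ± 0.11 (adjusted p = 0.0025). Its Sol minus MVe difference was -0.35 ± 0.16 (adjusted p = 0.11) and passed when arrays were quantile normalized (-0.47, adjusted p = 0.0293) or centred on their medians (-0.50, adjusted p = 0.0225), with a range of 0.0225 to 0.379 over the settings tried. Cplx3 and Cplx4, the complexins of retinal ribbon synapses, stayed between 2.95 and 5.07 in all arrays and did not pass.

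The syntaxin-binding proteins included Stxbp5l and Stxbp6, which had opposite directions in habenula minus hindbrain and in LHb minus MHb. Both were lower in every Sol array than in every MVe array. Stxbp5l (tomosyn-2, an inhibitor that occupies plasma membrane SNAREs) read 15.32, 15.24, 14.89 and 15.15 in MHb, 12.58, 12.15, 11.83 and 12.30 in LHb, 11.85, 11.69, 11.76 and 12.03 in MVe, and 10.59, 10.43, 10.39 and 10.75 in Sol. MHb was above all others and Sol below all others, and LHb minus MHb was -2.94 ± 0.14 (adjusted p = 2e-11) and habenula minus hindbrain 2.50 ± 0.10 (adjusted p = 6.9e-13). Stxbp6 (amisyn, another protein that binds plasma membrane SNAREs) read 12.41, 12.22, 12.23 and 12.51 in MVe, 11.19, 11.18, 10.91 and 10.81 in Sol, 10.04, 10.65, 10.14 and 10.32 in LHb, and 6.21, 5.93, 6.71 and 6.28 in MHb. The 4 regions did not overlap, with LHb minus MHb at 4.0 ± 0.19 (adjusted p = 1.3e-11), habenula minus hindbrain at -3.40 ± 0.13 (adjusted p = 4.1e-13) and Sol minus MVe at -1.32 ± 0.19 (adjusted p = 1.8e-05). Stxbp3 (Munc18-3, the partner of Stx4) was lower in MHb (9.06 to 9.77) than in all other arrays (10.31 to 11.20), and LHb minus MHb was 1.40 ± 0.18 (adjusted p = 8.6e-06).

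Of the 62 other presynaptic genes, 14 were higher (22.6%) and 25 lower (40.3%) in habenula minus hindbrain, beside 31.9% and 25.5% of the release machinery genes and 18.3% and 19.8% of all genes. In LHb minus MHb 20 were higher and 20 lower (32.3% each, beside 14.1% and 14.4% of all genes), and in Sol minus MVe 16 (25.8%) and 19 (30.6%), beside 19.3% and 16% of all genes. In the first contrast the widest were Synpr (synaptoporin, 5.61 ± 0.17), Cacna1e (the pore of R-type calcium channels, 4.79 ± 0.17) and Sv2b (a vesicle glycoprotein, 2.79 ± 0.13) on the higher side, and Sv2c (-4.09 ± 0.19), Rph3a (rabphilin, -3.55 ± 0.13) and Cadps (the dense-core priming factor CAPS1, -2.79 ± 0.13) on the lower. In LHb minus MHb they were Doc2b (a soluble calcium sensor, 4.82 ± 0.24), Rph3a (4.67 ± 0.19) and Cadps (4.20 ± 0.18), against Synpr (-2.97 ± 0.24), Cacna1e (-2.82 ± 0.24) and Sv2b (-2.60 ± 0.18). In Sol minus MVe they were Rab3b (a vesicle GTPase, 4.25 ± 0.23), Cacna1e (3.19 ± 0.24) and Doc2b (3.13 ± 0.24), against Rph3a (-3.62 ± 0.19), Sv2b (-3.21 ± 0.18) and Cadps (-2.54 ± 0.18). MHb was thus high in Synpr, Cacna1e and Sv2b and low in Rph3a, Cadps and Doc2b.

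No release machinery gene passed the test for either anesthetic. With sevoflurane against O2, 0 of the 47 were called in limma's fit, as were 0 of all genes in either direction (0% higher, 0% lower), and 1 was higher at an unadjusted p under 0.05, where 2.79% of all genes were, and 0 lower, where 2.20% were. The median difference of the 47 genes was 0.05, with 32 above 0 (68.1%), beside 0.01 and 52.8% over all genes. Stx5, a syntaxin of the Golgi, had the smallest p. It read 7.40 under O2 and 8.01 under sevoflurane in LHb, 7.58 and 8.46 in MHb, 7.30 and 7.89 in Sol, and 7.09 and 7.26 in MVe, higher in 4 of 4 regions by 0.56 ± 0.17 (unadjusted p = 0.0039, adjusted p = 0.852). The next on the higher side were Syt9 (0.36 ± 0.18, 4 of 4 regions), Stx8 (0.36 ± 0.19, 4 of 4), Stxbp3 (0.32 ± 0.18, 3 of 4) and Syt10 (0.35 ± 0.21, 3 of 4). On the lower side were Syt2 (-0.39 ± 0.19), Cplx2 (-0.29 ± 0.16), Stx7 (-0.24 ± 0.14), Stx4 and Stxbp5l, none past the threshold. Oligodendrocyte markers were lower with sevoflurane in 7 of 9 cases (median -0.28), with 0 called, and their part was not tested.

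With propofol against Intralipos, 0 of the 47 were called, against 0% of all genes higher and 0.0200% lower. At an unadjusted p under 0.05, 3 were higher (background 3.84%) and 1 lower (3.07%). The median difference was 0.03 with 27 above 0 (57.4%), beside 0.01 and 52.3% over all genes. Syt10 read 10.90 under Intralipos and 12 under propofol in LHb, 13.93 and 14.46 in MHb, 11.14 and 11.34 in Sol, and 4.61 and 5.60 in MVe, higher in 4 of 4 regions by 0.71 ± 0.21 (unadjusted p = 0.0035, adjusted p = 0.623). Both MVe values of Syt10 were below the level of the median gene (6.93). Syt15 was 0.57 ± 0.23, Stxbp5l 0.34 ± 0.14 in 4 of 4 regions, Snap29 0.28 ± 0.14 and Syt4 0.27 ± 0.14. On the lower side were Vamp8 (-0.54 ± 0.23), Stxbp3 (-0.33 ± 0.18, lower in 4 of 4 regions), Stxbp2, Vamp5 and Vamp4. None passed. Choroid plexus markers were higher with propofol in 6 of 7 cases (median 0.73), with 0 called, and their part was not tested.

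The sevoflurane effect minus the propofol effect, tested as 1 contrast, called 0 of the 47 genes, against 0.0133% of all genes higher and 0% lower. At an unadjusted p under 0.05 there was 1 higher (2.68%) and 2 lower (2.33%). Stxbp5l was lower under sevoflurane in 4 of 4 regions and higher under propofol in 4 of 4, a difference of -0.55 ± 0.20 (adjusted p = 0.946). Syt2 was -0.60 ± 0.26 and Stxbp3 0.65 ± 0.26 (adjusted p = 0.952 and 0.946). Sevoflurane was higher than O2 in all 4 regions for 7 of the 47 genes (14.9%, 7.18% of all genes) and lower in all 4 for 4 (8.51%, 6.47%). Propofol was higher than Intralipos in all 4 for 6 (12.8%, 8.36%) and lower in all 4 for 2 (4.26%, 6.68%).

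**Figure D4:**
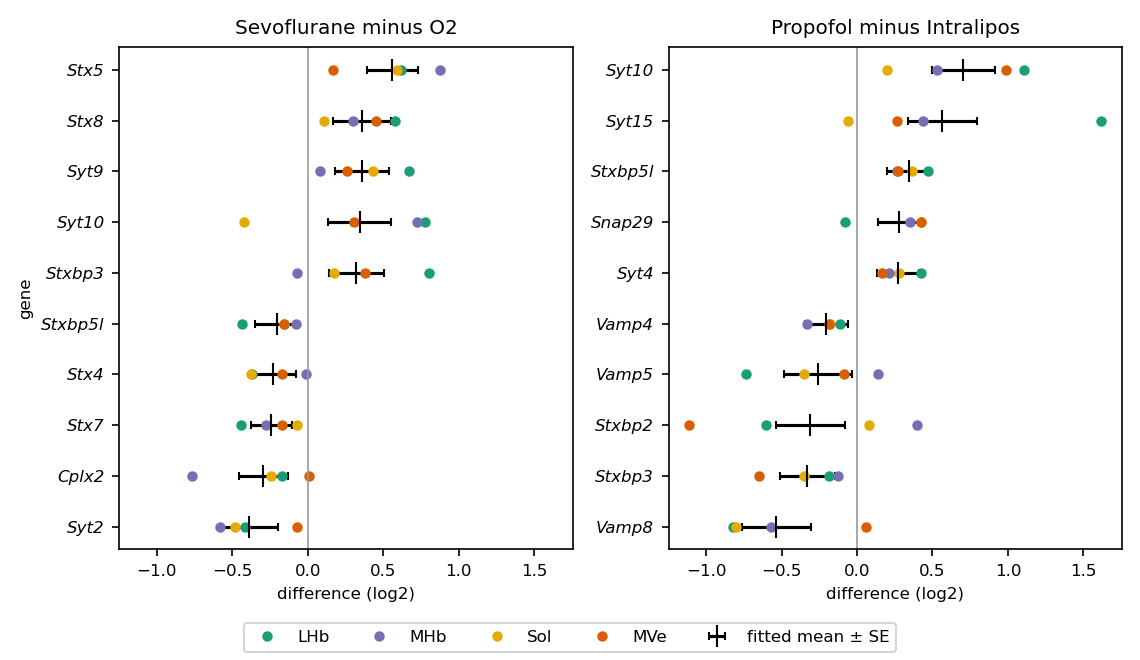
Difference (log2, horizontal axis) between an anesthetic array and its control array in each region (coloured points) for the 5 genes with the smallest p in each direction, with the fitted mean and its standard error (black). The single-region points spread widely around the means, and no gene passed the adjusted threshold.

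In single regions each comparison is of 1 array with 1 array and has no replicate check. Differences of at least 1 in either direction with sevoflurane numbered 2 of the 47 genes in MVe (3.6% of all genes), 1 in MHb (1.48%), 0 in LHb (1.03%) and 0 in Sol (1.38%). With propofol LHb had 3 (1.56%), MHb and MVe 1 each (2.17% and 1.7%) and Sol 0 (2.51%). Syt17 in MHb was lower with both anesthetics, by a difference of -1.38 with sevoflurane and -1.51 with propofol, in the region where its level was lowest. In MVe, sevoflurane minus O2 was 1.14 for Syt5 and 1.09 for Syt13, and propofol minus Intralipos was -1.11 for the dim gene Stxbp2. The MVe O2 array had the narrowest spread of gene levels of all arrays (interquartile range 5.14, against 5.51 to 5.54 in the other O2 arrays), and its part in the MVe differences was not tested.

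The remaining differences of at least 1 were in LHb with propofol: Syt15 at 1.62, Syt10 at 1.10 and Syt7 at -1.24. The LHb Intralipos array was the lowest of the LHb arrays for Syt15 (8.05) and Syt10 (10.90), while for Syt7 the propofol array was the lowest (7.96). Medial habenula markers moved with Syt15 and Syt10: 6 of 7 were higher under propofol in LHb, with a median of 1.07 and 1.49 for Tac3, 1.14 for Gng8 and 1.37 for Chrnb4. Under sevoflurane in LHb, Syt10 was higher by 0.78 and Syt9 by 0.67, and 5 of the 7 markers were higher, Tac3 by 0.56 and Gng8 by 0.52. Other markers moved in these arrays as well. With propofol in LHb all 9 astrocyte markers (median -0.23) and all 5 endothelial markers (median -0.39) were lower, and with sevoflurane all 9 oligodendrocyte markers were lower in LHb (median -0.40) and in MHb (median -0.63). The parts of these cell types in the differences of both habenular regions were not tested. In MHb the Syt10 difference was 0.53 with propofol and 0.72 with sevoflurane, and the marker medians were 0.17 and -0.13. Elsewhere the largest differences included Stxbp3 in LHb (0.81) and Stx5 in MHb (0.88) with sevoflurane, and Syt1 (0.82) and Stx3 (0.80) in Sol and Snap25 (0.69) in MVe with propofol. All 7 choroid plexus markers were higher with propofol in Sol (median 1.10) and in MVe (median 1.07), and all 7 were lower with sevoflurane in Sol (median -0.93). Their part in the hindbrain differences was not tested.

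**Figure D5:**
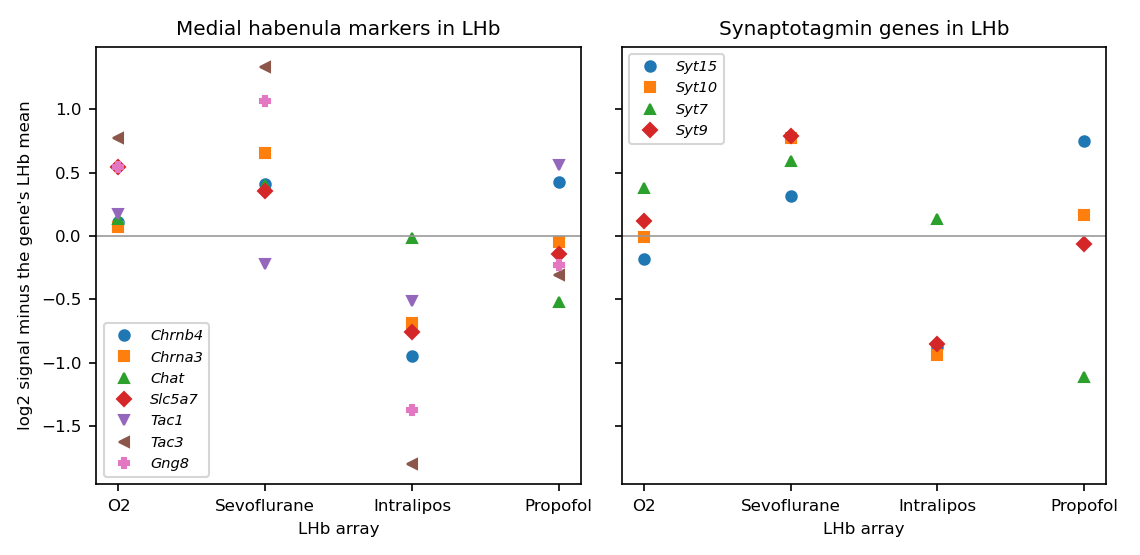
Log2 signal in the 4 LHb arrays (horizontal axis), as the distance from the gene's LHb mean (vertical axis), of the 7 medial habenula markers (left) and of 4 synaptotagmin genes (right), the 3 that differed by at least 1 with propofol and Syt9. The Intralipos array is the lowest for 6 of the 7 markers and for 3 of the 4 genes, the propofol array being lowest for Chat and Syt7. As 3 of the 4 genes were picked for their propofol difference, their low Intralipos or propofol array follows partly from that choice. The sevoflurane array is above the mean for 6 of the 7 markers, all but Tac1, and for all 4 genes.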

How the data were processed

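Expression was measured on 16 arrays, 1 for each of 4 regions and 4 treatments. The deposited values are log2 signals, which the authors produced in Expression Console 1.3.0 (Affymetrix), per the submitters' processing notes. How probes were summarized is not given in the sources used here, nor is a build, and the log2 scale was read from the values. Of 24834 probe sets, 94 controls were left out, 15049 had 1 symbol, 0 several and 9691 none; the brightest probe per gene left 15037 genes. No further normalization or filter was applied. All 16 arrays entered 1 limma 3.58.1 model (R 4.3.3) of treatment plus region (9 residual degrees of freedom, two-sided, Benjamini-Hochberg over all genes, threshold 0.05), which was tested on simulated data. Treatments stood in for replicates of a region and regions for replicates of a treatment, so p-values measure only the spread between these arrays, which may be technical. Those of the anesthetic contrasts are too small where regions share a rat. In the region contrasts the treatment term takes up what the 4 regions of a treatment share. The number of arrays limits the precision.

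The members and gene lists were chosen with earlier results of these data known. The text names 10 core genes (Syt1, Syt2, Syt7, Syt9, Stx1a, Snap25, Vamp1, Vamp2, Cplx1, Cplx2), the widest called differences of each region contrast, the 5 smallest p in each direction of each anesthetic contrast, and the widest differences of single regions. Alternatives left out arrays or regions and changed the block, scaling, variance estimate, filter and probes. Promoters are RefSeq's (GRCr8).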

Additional observations from a re-analysis of the deposited data

Results flagged for a closer look

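In 144 groups of 4 values (a named gene in the 4 arrays of a region, taken relative to their treatments or as differences), single values farther from the rest than Dixon's critical value (0.829) were listed. Chance flags about 1 in 20 such groups. In Sol these were Syt17 under O2 (10.98), Syt6 under O2 (10.03) and Syt4 under sevoflurane (14.66). In MVe they were Syt6 under Intralipos (4.81), Syt12 under propofol (9.61) and Stxbp3 under Intralipos (10.96), and in MHb Syt15 (10.15) and Vamp8 (6.03), both under sevoflurane. Among differences, Snap29 was -0.082 for propofol minus Intralipos in LHb and above 0 in the other 3 regions. Stxbp5l was lower with sevoflurane in 4 of 4 regions and higher with propofol in 4 of 4, and the difference of the effects, -0.55, did not pass in limma's fit (adjusted p = 0.946).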

How the results depend on the processing

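The counts of called genes stayed within 1.5 times their value under every alternative run. The F test called 27 to 38 genes beside 34, and 32 to 34 with 1 array left out. With 1 array left out, habenula minus hindbrain called 12 to 16 higher and 11 to 13 lower, LHb minus MHb 12 to 13 and 10 to 12, and Sol minus MVe 12 to 14 and 10 to 11. The anesthetic comparisons called 0 of the 47 genes under each setting. Of the named region values, 683 kept direction and side of the threshold over the alternatives, 17 fell below it, 5 rose past it and 2 turned sign: Stx1a in LHb minus MHb was -0.18 in the propofol and Intralipos arrays alone, and Snap25 in LHb minus MHb ranged from -0.186 to 0.011 with 1 array left out, the latter without the LHb O2 array. Of the named anesthetic values 255 kept both, and Snap25 in the difference of the effects ranged from -0.481 to 0.0007, the latter without MVe. Small differences rested on single arrays: Vamp4 in habenula minus hindbrain (0.28, adjusted p = 0.0347) lost its call when any 1 of 10 arrays was left out (adjusted p up to 0.0921), Snap47 and Stx17 in the same contrast with any 1 of 9, Stx4 with any 1 of 3, and Stxbp5 in LHb minus MHb with any 1 of 5. The cause of these changes was not tested. The mean of a gene's probes gives the named genes no other value, since each has 1 probe. Each anesthetic was compared with its control within regions, through the region term, and the labels give no replicate numbers for any other pairing. With 1 array per region and treatment, no single-region difference has an error.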
